A study of Mus musculus with 10 samples.

Results

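The genes described here encode the enzymes that methylate lysine 9 of histone H3 (H3K9), the corepressor that brings one of them to chromatin, and the HP1 proteins that bind the mark. They are Setdb1, Trim28, Ehmt1, Ehmt2, Suv39h1, Suv39h2, Cbx1, Cbx3 and Cbx5, taken by name as 9 of the 55536 gene rows of the deposited tables. All 9 passed the filter on low counts, which kept 20317 genes. RNA was sequenced from female germ cells, labelled oocytes, of C57BL/6 mouse fetuses at E14.5. The genotypes sampled were Taf4b-deficient (4 libraries, labelled infertile), Taf4b-heterozygous (4 libraries, labelled fertile) and Taf4b-wildtype (2 libraries, labelled fertile). Taf4b encodes a subunit of the general transcription factor TFIID that is enriched in germ cells. Both parents were heterozygous for the Taf4b-deficiency mutation and homozygous for an Oct4-EGFP transgene, so fetuses of every genotype carried the reporter, and live GFP-positive gonad cells were sorted. Each library has 1 of 3 litter dates. Whether it holds 1 fetus or a pool is not labelled, so a p-value here reflects spread between libraries, part of which may be technical.

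Methylated H3K9 marks silent chromatin. Trim28 is recruited by zinc finger proteins of the KRAB family and brings in Setdb1, which trimethylates H3K9 at retrotransposons and imprinted loci. Ehmt1 and Ehmt2 work as a pair that monomethylates and dimethylates H3K9 in euchromatin, and mouse germ cells that lack Ehmt2 arrest in meiotic prophase. Suv39h1 and Suv39h2 trimethylate H3K9 at pericentric repeats, and the HP1 proteins encoded by Cbx5 (HP1 alpha), Cbx1 (HP1 beta) and Cbx3 (HP1 gamma) bind the methylated lysine through their chromodomain.

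Stretches before the RefSeq start are shown for 3 genes: Setdb1, the 1 gene of the 9 called along the stage index described further on, Suv39h1, next to the threshold there, and Trim28, whose protein brings Setdb1 to chromatin. Each is the 250 bases before the RefSeq start on GRCm38.p6, written 5′ to 3′ on the strand of the gene, with capitals marking the motifs searched on both strands. These motifs were the GC box GGGCGG that Sp1-type factors bind, CCAAT, the E-box CACGTG and the E2F-type motif GCGGGAA, which do not overlap in these stretches. The Setdb1 stretch is chr3:95357203-95357452 (minus strand), the Suv39h1 stretch chrX:8074761-8075010 (minus strand) and the Trim28 stretch chr7:13023902-13024151 (plus strand). The RefSeq start of Trim28 lies 25038 bases inside the GENCODE gene span given below, so its stretch lies within that span. Whether the stretch overlaps annotated exons was not examined.
Setdb1: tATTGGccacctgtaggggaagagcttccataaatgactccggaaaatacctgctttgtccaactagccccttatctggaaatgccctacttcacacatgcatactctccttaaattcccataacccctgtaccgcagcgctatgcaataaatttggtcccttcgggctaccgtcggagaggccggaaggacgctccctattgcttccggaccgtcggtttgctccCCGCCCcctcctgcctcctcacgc
Suv39h1: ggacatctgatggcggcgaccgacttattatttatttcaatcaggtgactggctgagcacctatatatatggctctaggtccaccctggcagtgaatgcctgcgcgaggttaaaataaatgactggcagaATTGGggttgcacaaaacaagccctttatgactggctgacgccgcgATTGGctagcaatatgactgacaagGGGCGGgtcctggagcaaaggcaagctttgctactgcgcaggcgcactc
Trim28: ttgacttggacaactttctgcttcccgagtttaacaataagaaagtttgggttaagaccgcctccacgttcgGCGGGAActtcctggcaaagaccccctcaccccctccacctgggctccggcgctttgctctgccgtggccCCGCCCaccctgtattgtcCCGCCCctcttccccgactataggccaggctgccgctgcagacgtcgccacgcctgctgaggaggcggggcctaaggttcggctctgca

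The GC box occurred in the 250-base stretch of all 9 genes, against 54.1% of the stretches of tested genes and 32.7% of all 32851 stretches in the table. CCAAT occurred in 3 of the 9 (Setdb1, Suv39h1 and Cbx5), against 35.2% of the stretches of tested genes and 33.8% of all. CACGTG occurred in 2 (Ehmt2 and Cbx5), against 7.96% and 6.02%. GCGGGAA occurred in 2 (Trim28 and Suv39h2), against 6.46% and 3.82%. The share of G and C ran from 49.6% (Cbx1) to 73.2% (Cbx3), beside a median of 59.2% over tested genes. A match is a description of letters and was not tied to a level.

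Library totals ran from 28949924 to 44166320 reads, and the lowest count of any of the 9 genes in any library was 1466 reads (Cbx3). CPM below are counts scaled to the reads of tested genes in the library after TMM, and serve to compare 1 gene between libraries. Taf4b, the targeted gene, averaged 60.8 ± 3.71 CPM over the deficient libraries, 199 ± 40.3 CPM over the heterozygous ones (SD, n = 4 each) and 179.7 ± 38.7 CPM over the wildtype ones (SD, n = 2). Summed over 8 germ cell markers, levels ran from 5217 to 5350 CPM in deficient, 4886 to 5195 CPM in heterozygous and 4987 to 5243 CPM in wildtype libraries. The sums over 11 pregranulosa markers stayed between 20.0 and 52.9 CPM and those over 11 stromal and mesothelial markers between 6.49 and 17.0 CPM in any library. The 13 blood and macrophage markers summed to 20.2 to 28.6 CPM in deficient, 8.92 to 19.3 CPM in heterozygous and 17.0 to 30.5 CPM in wildtype libraries. The 7 endothelial markers reached 387 CPM, of which Pecam1, which germ cells also express, held up to 380.4 CPM, and the other 6 summed to between 5.60 and 9.10 CPM. Every listed marker had reads in at least 1 library. Deficient replicates 2 and 4 and heterozygous replicate 3 held 87.4 to 454 CPM of Gm23935, annotated as a miRNA gene, where the other 7 libraries held 4146 to 5068 CPM, so results below are also given without these libraries where that changes a call.

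Levels were first set side by side per length, as the TPM values that the authors deposited. Suv39h1 stood highest at 249 ± 48.0 TPM and Trim28 next at 235 ± 74.4 TPM, followed by Setdb1 at 139 ± 43.2 TPM (SD over the 10 libraries). The remaining 6 genes lay within a narrow band. Cbx3 averaged 73.6 ± 27.2 TPM, Cbx1 69.7 ± 8.37, Ehmt2 63.0 ± 12.0, Suv39h2 56.4 ± 8.49, Ehmt1 48.9 ± 6.73 and Cbx5 37.1 ± 6.43 TPM. Suv39h1 lay above Trim28 in 7 of 10 libraries, Trim28 above Setdb1 in 10, Setdb1 above Cbx3 in 9 and Ehmt1 above Cbx5 in 9. Cbx3 over Cbx1 held in 7 libraries, Cbx1 over Ehmt2 in 6, Ehmt2 over Suv39h2 in 7 and Suv39h2 over Ehmt1 in 7, and each of these neighbours differed by less than the SD of the higher one, as did Suv39h1 and Trim28. The 9 genes are well expressed in these cells, between the 75.6 percentile (Cbx5) and the 96.6 percentile (Suv39h1) of mean TPM over tested genes.

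**Figure D1:**
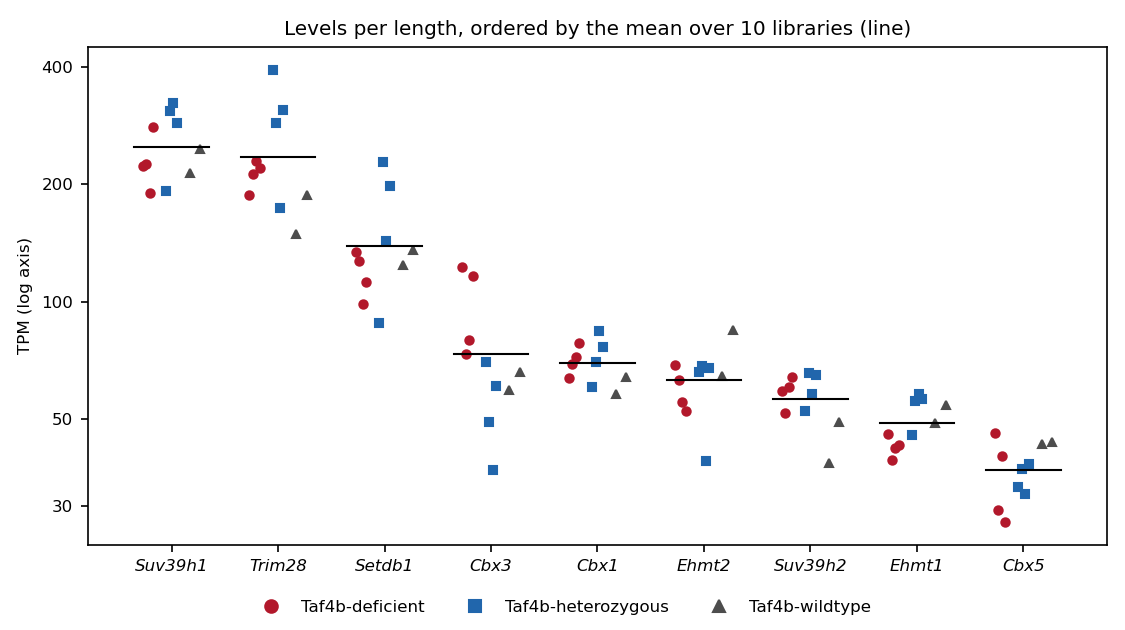
TPM (log axis) of the 9 genes in each of the 10 libraries, ordered by the mean over libraries (line); colour and shape give the genotype. Suv39h1, Trim28 and Setdb1 stand above the other 6 on average, whose libraries overlap from Cbx3 down to Ehmt1.

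Of the paired enzymes, Suv39h1 exceeded Suv39h2 in TPM in all 10 libraries. The ratio ran from 3.16 to 4.38 in deficient, 3.65 to 5.60 in heterozygous and 5.02 to 5.56 in wildtype libraries, so the wildtype ratios lay above every deficient one. Suv39h2 itself was lowest in the wildtype libraries (38.6 and 49.1 TPM). How often ratios of other gene pairs separate these groups was not computed, while 12.6% of single genes did so in CPM. Ehmt2 exceeded Ehmt1 in 9 of 10 libraries, at ratios of 1.22 to 1.61 in deficient, 0.672 to 1.45 in heterozygous and 1.32 to 1.56 in wildtype libraries. The exception was heterozygous replicate 3. Among the HP1 genes, Cbx3 and Cbx1 each exceeded Cbx5 in all 10 libraries. Cbx3 over Cbx1 was 1.06 to 1.93 in deficient, 0.441 to 1.16 in heterozygous, and 1.03 in each wildtype library.

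The genes differed in how far their CPM varied between libraries. The highest library held 2.73 times the lowest for Trim28 and for Cbx3, 2.38 times for Setdb1 and 2.04 times for Ehmt2. Cbx5 varied 1.78-fold, Suv39h2 1.76-fold and Suv39h1 1.46-fold, while Ehmt1 and Cbx1 varied only 1.20-fold and 1.17-fold. Their spread was wider in TPM, from 39.2 to 58.1 for Ehmt1 and from 58.1 to 84.1 for Cbx1. The median CPM ratio over the 4101 genes with a mean of at least 64.7 CPM, that of Cbx3, was 1.64-fold. For Setdb1, Trim28 and Cbx3 most of the variation lay among heterozygous libraries, whose highest value was 2.38, 2.59 and 2.27 times their lowest. Among deficient libraries these ratios were 1.32, 1.26 and 1.24.

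Setdb1 (ENSMUSG00000015697; GRCm38 chr3:95323525-95357202, minus strand), the methyltransferase that serves Trim28, held 384, 359.9, 292 and 306 CPM in the deficient libraries, replicate 1 first. The heterozygous libraries held 254, 603, 365 and 504 CPM, and the wildtype pair 370.4 and 364 CPM. The heterozygous group held both the lowest and the highest library, and the genotypes overlapped. The deficient mean was 335 ± 43.8 CPM, the heterozygous mean 431 ± 153 CPM (SD, n = 4 each) and the wildtype mean 367 ± 4.26 CPM (SD, n = 2). The gene shares 75 exonic bases with Cers2 and 249 with Gm37500, both on the other strand.

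Trim28 (ENSMUSG00000005566; chr7:12999114-13031035, plus strand), the corepressor, held 361, 404, 454 and 403 CPM over the deficient libraries, 799, 534, 308 and 558 CPM over the heterozygous ones and 292 and 340.4 CPM over the wildtype pair. All 4 deficient libraries lay above both wildtype libraries, and heterozygous replicate 1 stood highest of the 10. The deficient mean was 405 ± 37.8 CPM, the heterozygous mean 549.9 ± 201 CPM (SD, n = 4 each) and the wildtype mean 316 ± 34.1 CPM (SD, n = 2). Heterozygous replicate 1 thus combined the highest Trim28 with the lowest Setdb1. The ratio of Setdb1 to Trim28 CPM was 1.06, 0.891, 0.643 and 0.758 over the deficient replicates, 0.317, 1.13, 1.18 and 0.902 over the heterozygous ones, and 1.27 and 1.07 over the wildtype pair.

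Ehmt1 (ENSMUSG00000036893; chr2:24789928-24919614, minus strand) and Ehmt2 (ENSMUSG00000013787; chr17:34898469-34914052, plus strand) encode the enzymes GLP and G9a. Ehmt1 held 136, 129, 131 and 130.3 CPM over the deficient libraries, 131, 155, 145 and 139 CPM over the heterozygous ones and 143 and 137 CPM over the wildtype pair. The deficient libraries lay below both wildtype libraries by a small margin and overlapped the heterozygous ones. Ehmt2 held 155, 125, 130.1 and 107 CPM over the deficient libraries, 129, 122, 76.0 and 119 CPM over the heterozygous ones and 129 and 141 CPM over the wildtype pair. In CPM heterozygous replicate 3 stood lowest, the heterozygous libraries lay just below the wildtype ones, and the deficient libraries overlapped both. In TPM heterozygous replicates 1, 2 and 4 (66.0, 68.4 and 67.7) lay above wildtype replicate 1 (64.7).

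Suv39h1 (ENSMUSG00000039231; chrX:8061171-8074760, minus strand) held 241, 249, 219 and 290.0 CPM over the deficient libraries, 216, 309, 315 and 289 CPM over the heterozygous ones and 246 and 254 CPM over the wildtype pair. Heterozygous replicate 1 was again apart from the other 3 of its group, here on the low side, and the genotypes overlapped. The gene shares 767 exonic bases with the antisense gene Gm14820, which held under 1 CPM in every library. Suv39h2 (ENSMUSG00000026646; chr2:3455815-3475031, minus strand) held 93.7, 109, 104 and 96.2 CPM over the deficient libraries, 86.9, 92.9, 102 and 95.3 CPM over the heterozygous ones and 61.9 and 79.3 CPM over the wildtype pair. Both wildtype libraries were below all 8 others, in TPM as in CPM. Suv39h2 shares 357 exonic bases with Dclre1c on the other strand. Dclre1c held 20.2 to 24.5 CPM over the 10 libraries, and with the strand setting of the counting not given, reads of the shared stretch cannot be told apart.

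Of the HP1 genes, Cbx1 (ENSMUSG00000018666; chr11:96789127-96808640, plus strand) was the steadiest, at 83.3, 93.1, 89.7 and 83.5 CPM over the deficient libraries, 86.3, 90.3, 90.8 and 89.5 CPM over the heterozygous ones and 87.2 and 79.5 CPM over the wildtype pair. Cbx3 (ENSMUSG00000029836; chr6:51470360-51483704, plus strand) held 72.4, 73.7, 88.2 and 71.3 CPM over the deficient libraries, 73.1, 47.6, 32.3 and 57.5 CPM over the heterozygous ones and 67.8 and 63.2 CPM over the wildtype pair. Heterozygous replicates 2, 3 and 4 lay below every other library, and heterozygous replicate 1 lay within the deficient range. In TPM, Cbx3 held 123, 73.6, 79.8 and 116 over the deficient libraries, 70.0, 49.3, 37.1 and 60.8 over the heterozygous ones and 59.5 and 66.1 over the wildtype pair, so there the deficient libraries lay above all others. The deficient libraries with 123 and 116 TPM held 72.4 and 71.3 CPM, so they stood high in TPM only. The cause was not tested, and the Cbx3 differences from TPM below include these libraries. Cbx3 has 11 annotated pseudogenes that match it over at least 200 bases at 90% identity or more, and their reads came to 1.22% of its own. How reads that match several of these genes were assigned was not examined. Cbx5 (ENSMUSG00000009575; chr15:103191544-103239816, minus strand) held 181, 125, 187 and 114 CPM over the deficient libraries, 154, 147, 109 and 145 CPM over the heterozygous ones and 194 and 189 CPM over the wildtype pair. In CPM both wildtype libraries stood above all 8 others, while in TPM deficient replicate 1 (46.2) stood above both (43.3 and 43.7). The share of all genes with wildtype libraries outside all 8 others was not computed.

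**Figure D2:**
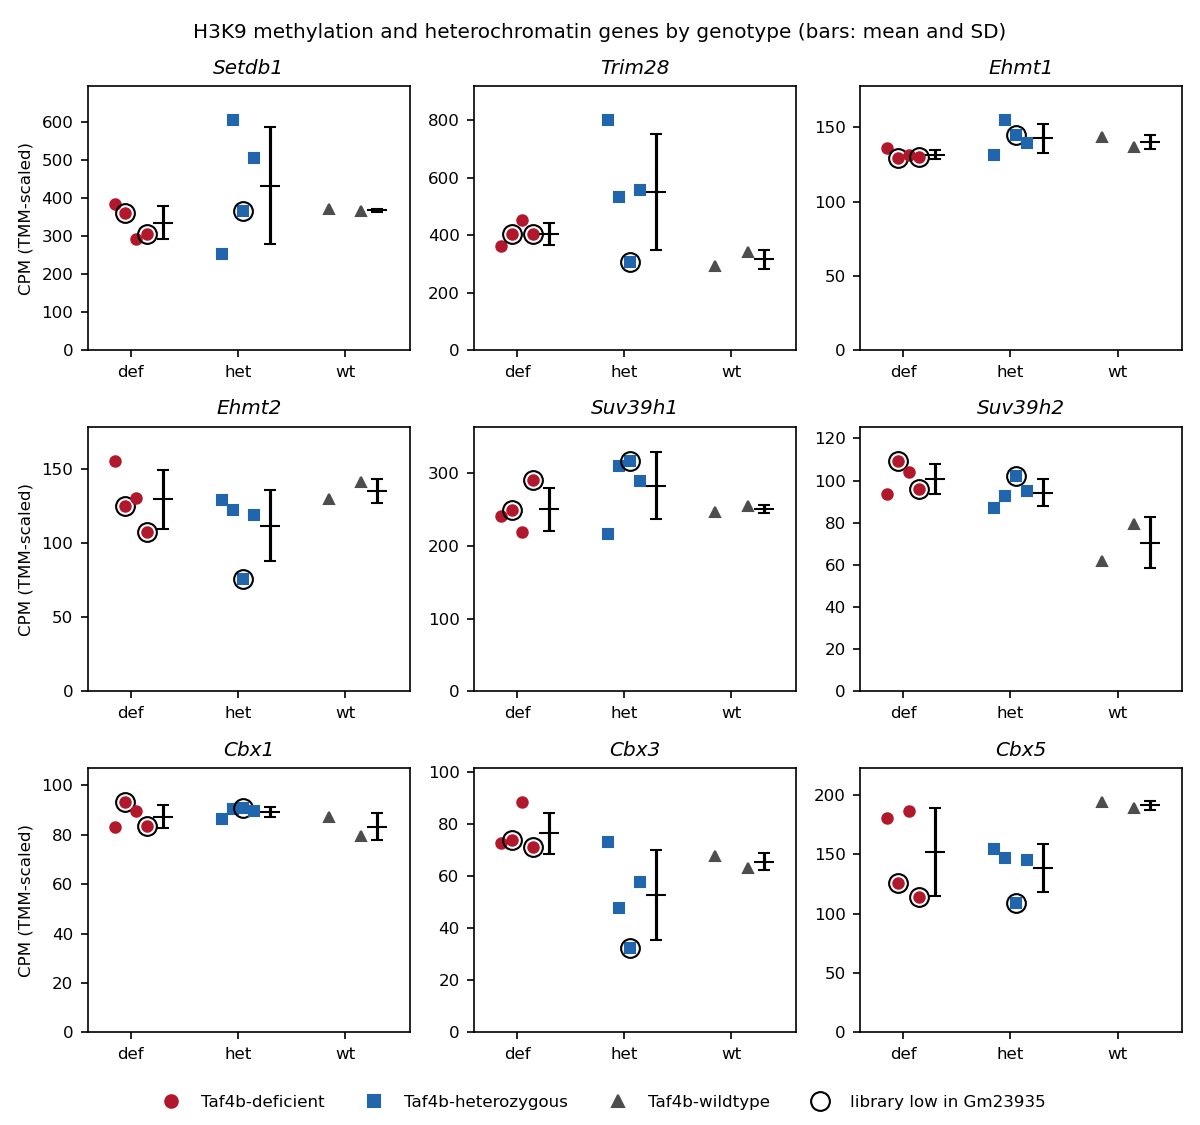
CPM after TMM scaling of the 9 genes in each library, by genotype (def, het and wt), with mean and SD as bars and rings around the 3 libraries low in Gm23935. Setdb1, Trim28 and Cbx3 spread widely in heterozygous libraries, Suv39h2 is lowest in wildtype libraries, and the ringed libraries hold the lowest Cbx5 values.

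Deficient libraries were first set against heterozygous ones, which keep 1 intact copy of Taf4b. None of the 9 genes was called by edgeR at an adjusted p under 0.05, where 0.0148% of all tested genes were called. Cbx3 had the largest difference, a log2 fold change of 0.54 (SE 0.21, 95% interval 0.07 to 1.01, unadjusted p = 0.0288, adjusted p = 0.390), and was the 1 gene of the 9 with an unadjusted p under 0.05, beside 11.9% of all genes. Trim28 stood at -0.44 (SE 0.23, adjusted p = 0.463) and Setdb1 at -0.36 (SE 0.23, adjusted p = 0.515). Without heterozygous replicate 1 Trim28 stood at -0.16, and Setdb1 at -0.16 without heterozygous replicate 2 and -0.24 without replicate 4. With the deposited TPM (pseudocount 0.1) Cbx3 stood at 0.86, again without a call. Deficient replicates 1 and 4 stood high in Cbx3 TPM but not in CPM. The other 6 lay between -0.18 (Suv39h1) and 0.21 (Ehmt2, at 0.11 to 0.34 without 1 library each and 0.020 with TPM), and the median over the 9 was -0.03 beside -0.05 over all genes. Ehmt1, at -0.11 from counts, stood at -0.34 with TPM (pseudocount 0.1), and Suv39h1 at -0.26, neither called. The median over all genes in that fit was -0.11. No gene of the 9 had groups without overlap in CPM, beside 5.97% of all genes. With the meiotic stage index described below as a covariate, Setdb1 stood at -0.07, Cbx3 at 0.40 and Trim28 at -0.57, again without a call. DESeq2 called none of the 9. Limma voom with sample weights called Setdb1 (-0.55, adjusted p = 0.0413) and Cbx3 (0.51, adjusted p = 0.0389), beside 14.8% of all genes by that tool, within ranges over all alternatives of 0.0413 to 0.890 and 0.0389 to 0.765. Within 29 January Cbx3 differed by 0.34 (2 deficient libraries and 1 heterozygous), and within 7 March by 0.56 (1 and 3). The summed germ cell markers and the summed blood and macrophage markers did not overlap between these genotypes, and their part in the Cbx3 difference was not tested. In bulk RNA, fewer cells of a type and less RNA per cell cannot be told apart.

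Deficient libraries were next set against wildtype ones, which carry both copies. None of the 9 genes was called, as was none of all tested genes (0% by edgeR), while 3.66% of all genes and 1 of the 9, Suv39h2, had an unadjusted p under 0.05. The log2 fold change of Suv39h2 was 0.51 (SE 0.15, 95% interval 0.18 to 0.85, unadjusted p = 0.00607, adjusted p = 1.00), a 1.43-fold higher level, higher in 4 of 4 deficient libraries. Wildtype replicate 1 held the lowest Suv39h2 of all libraries. With 1 library left out at a time the Suv39h2 difference ran from 0.35 to 0.70. DESeq2 called none of the 9, and limma voom none. Within 29 January the Suv39h2 difference was 0.71 (2 libraries and 1) and within 1 March 0.39 (1 and 1). Trim28 stood at 0.36 (SE 0.28), Cbx5 at -0.33 (SE 0.22) and Cbx3 at 0.22 (SE 0.26), each with an adjusted p of 1.00. Cbx3 stood at 0.61 with the deposited TPM (pseudocount 0.1) and at 0.15 without deficient replicate 3. Cbx5 stood at -0.22 without deficient replicate 4 and at -0.05 without the 3 libraries low in Gm23935. The other 5 lay between -0.13 and 0.07. Over all alternatives Ehmt1 reached -0.28, Ehmt2 -0.31 and Cbx1 0.21, without a call. In CPM the groups did not overlap for 5 of the 9 genes, Trim28, Suv39h2 and Cbx3 being higher and Ehmt1 and Cbx5 lower in deficient libraries, beside 12.6% of all genes. In TPM the Cbx5 groups overlapped.

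Deficient libraries were also set against the mean of the heterozygous and wildtype groups, each weighted equally, since the labels call both fertile. No gene of the 9 was called by edgeR, DESeq2 or limma voom, beside 0.00492% of all genes by edgeR. Suv39h2 stood at 0.30 (SE 0.11, unadjusted p = 0.0208, adjusted p = 0.904) and Cbx3 at 0.38 (SE 0.20, adjusted p = 0.904), and Suv39h2 was the 1 gene of the 9 with an unadjusted p under 0.05, beside 4.31% of all genes. With the deposited TPM (pseudocount 0.1) Suv39h2 stood at 0.20 and Cbx3 at 0.73, without a call. With 1 library left out at a time Suv39h2 ran from 0.22 to 0.42. Setdb1 stood at -0.25 (SE 0.21), or -0.15 without heterozygous replicate 2, and the other 6 between -0.10 and 0.07. Of these, Ehmt1 stood at -0.31 and Cbx5 at -0.17 with TPM (pseudocount 0.1), each against -0.10 from counts and neither called. In CPM none of the 9 had groups without overlap, beside 1.39% of all genes. In TPM the Cbx3 groups did not overlap (lowest deficient 73.6, highest heterozygous 70.0, highest wildtype 66.1). The share over all genes was not computed in TPM. In the authors' deposited table, which names no contrast, the adjusted p of the 9 genes ran from 0.808 to 0.971.

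Heterozygous against wildtype libraries compared 1 Taf4b copy with 2. None of the 9 genes was called, beside 0.00492% of all genes. Trim28 stood at 0.80 (SE 0.29, 1.74-fold, unadjusted p = 0.0188, adjusted p = 0.414) and Suv39h2 at 0.42 (SE 0.15, 1.34-fold, unadjusted p = 0.0183, adjusted p = 0.411), 2 of the 9 with an unadjusted p under 0.05, beside 8.3% of all genes. Trim28 was higher in 3 of 4 heterozygous libraries than in both wildtype libraries, and heterozygous replicate 3 lay between the wildtype values. Without heterozygous replicate 1 the Trim28 difference was 0.52, against 0.80 with it. The stage index as a covariate left Trim28 at 0.89 and Setdb1 at -0.01, neither called. Cbx5 stood at -0.46 (SE 0.22, adjusted p = 0.622), Cbx3 at -0.32 (SE 0.26) and Ehmt2 at -0.28 (SE 0.21), and the other 4 lay between 0.02 and 0.23. Suv39h2 stood at 0.25 without wildtype replicate 1. Cbx3 stood at -0.56 without heterozygous replicate 1 and -0.18 without replicate 3, where Ehmt2 stood at -0.17. With litter date as a term Cbx5 and Cbx3 stood at -0.17 each, Ehmt2 at -0.09 and Suv39h1 at 0.04. Heterozygous replicates 1, 2 and 3 are dated 7 March, a date without a wildtype library. Genotype and date can thus be only partly told apart in this comparison. Within 29 January, with 1 library of each genotype, Trim28 differed by 0.93 and Suv39h2 by 0.62. In CPM these groups did not overlap for 3 of the 9 genes, Suv39h2 being higher and Ehmt2 and Cbx5 lower in heterozygous libraries, beside 15.8% of all genes. In TPM the Ehmt2 groups overlapped. Limma voom with sample weights called Trim28 alone (0.76, adjusted p = 0.0312, within a range over all alternatives of 0.0312 to 1.00), beside 5.23% of all genes by that tool, and DESeq2 called none of the 9. This comparison shares the wildtype libraries with that of deficient against wildtype libraries, so the low Suv39h2 of the wildtype libraries enters both.

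**Figure D3:**
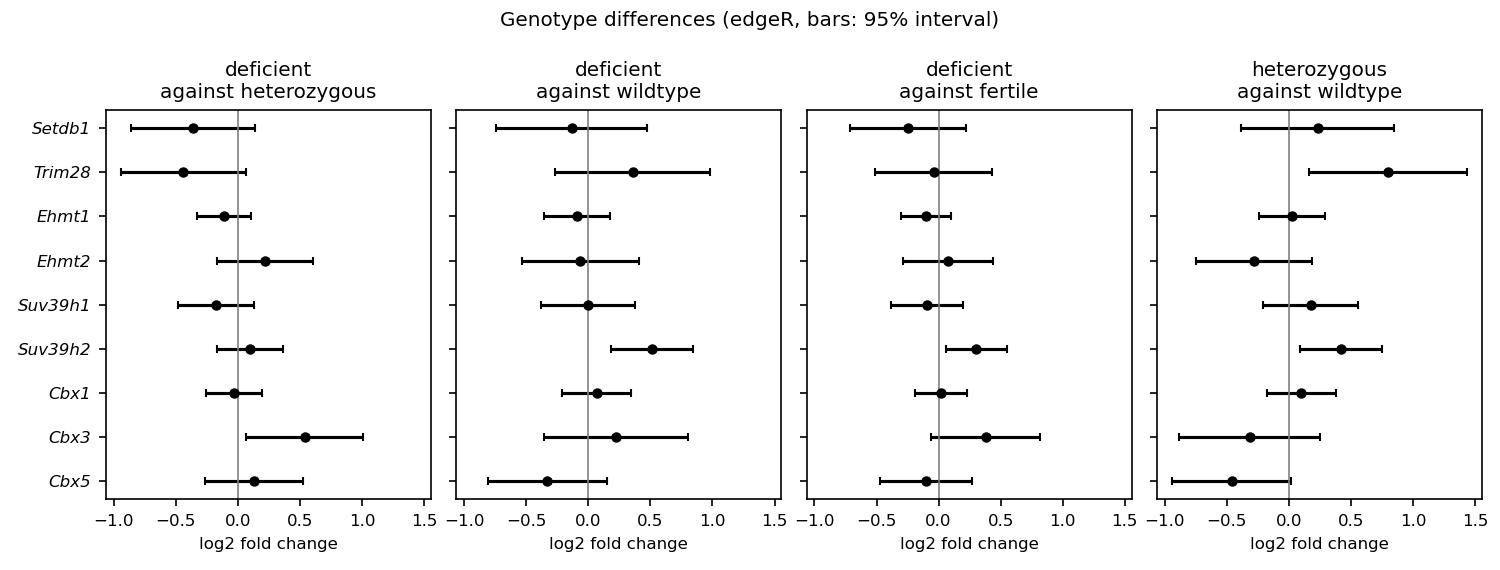
Log2 fold changes of the 9 genes with their 95% intervals (edgeR) in 4 genotype comparisons; fertile is the equally weighted mean of heterozygous and wildtype. No gene was called after adjustment; the intervals of Cbx3 (deficient against heterozygous), Trim28 (heterozygous against wildtype) and Suv39h2 (3 comparisons) leave out 0.

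At E14.5 (days of embryonic age) female germ cells enter meiosis out of step, and the libraries differed in how far they had gone. A stage index was formed in each library as the mean log2 CPM of 31 meiotic recombination genes minus that of 24 pluripotency and early germ cell genes, 23 of which were tested. It was -1.78 in deficient replicate 3, -1.71 in heterozygous replicate 1, -0.26 in deficient replicate 4, -0.11 in wildtype replicate 1, 0.07 in deficient replicate 1, 0.19 in wildtype replicate 2, 1.20 in deficient replicate 2, and 1.54, 1.62 and 1.99 in heterozygous replicates 4, 3 and 2. The index averaged -0.19 ± 1.23 over the deficient libraries, 0.86 ± 1.73 over the heterozygous ones (SD, n = 4 each) and 0.04 ± 0.21 over the wildtype ones (SD, n = 2). None of the 9 genes is part of the index, but it comes from the same libraries and so shares their depth and scaling. Dppa3, Dnd1, Kit and Pou5f1 are in the index and also among the germ cell markers summed above, so that sum is not independent of the index.

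Setdb1 rose with the stage index. In the order of the index from low to high it held 292, 254, 306, 370.4, 384, 364, 359.9, 504, 365 and 603 CPM, with its 3 lowest values in the 3 libraries of lowest index and its 2 highest among the 3 of highest index. The slope at constant genotype was 0.23 on the log2 scale per unit of the index (SE 0.059, adjusted p = 0.0172 by edgeR), or 1.81-fold over the 3.77 units covered. It was the 1 called gene of the 9, where 24.8% of all tested genes were called, 12.9% higher and 11.9% lower with the index. Without heterozygous replicate 1 the slope was 0.14 (adjusted p = 0.496), and no gene of the 9 was called, where 3.36% of 19975 tested genes were. Within heterozygous libraries alone the slope was 0.29 (adjusted p = 0.11) and within deficient libraries alone 0.12 (adjusted p = 0.375). Without deficient replicate 3 and heterozygous replicate 2, the libraries farthest from the median index, it was 0.21 (adjusted p = 0.0945). With litter date as a term it was 0.23 (adjusted p = 0.0447). Over all alternatives the adjusted p of Setdb1 ran from 7.31e-05 to 0.496.

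Suv39h1 held 219, 216, 290.0, 246, 241, 254, 249, 289, 315 and 309 CPM in the same order, lowest in the 2 libraries of lowest index. Its slope was 0.12 (SE 0.039, adjusted p = 0.0527), just outside the threshold. DESeq2 (adjusted p = 0.0486) and limma voom (0.0107) called it, beside 27.6% and 34.2% of all genes by these tools, within a range over all alternatives of 0.00494 to 0.722. Cbx3 held 88.2, 73.1, 71.3, 67.8, 72.4, 63.2, 73.7, 57.5, 32.3 and 47.6 CPM in that order, lowest in the 3 libraries of highest index, and its slope was -0.16 (SE 0.059, adjusted p = 0.0742). Those 3 libraries are all heterozygous. Trim28 held 454, 799, 403, 292, 361, 340.4, 404, 558, 308 and 534 CPM, with no steady order, and its slope was -0.16 (SE 0.066, adjusted p = 0.0998). The remaining slopes were -0.09 for Cbx5, -0.05 for Ehmt2, 0.04 for Suv39h2, 0.03 for Ehmt1 and 0.01 for Cbx1, with adjusted p from 0.298 to 0.784. Without heterozygous replicate 1 the slope of Suv39h1 was 0.060, that of Cbx3 -0.095 and that of Trim28 -0.049, none called. Without the 3 libraries low in Gm23935, 4 of the 9 genes were called, Setdb1 at 0.31 and Suv39h1 at 0.13 being higher and Trim28 at -0.15 and Cbx3 at -0.14 being lower with the index. In that fit 33.9% of all genes were called.

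**Figure D4:**
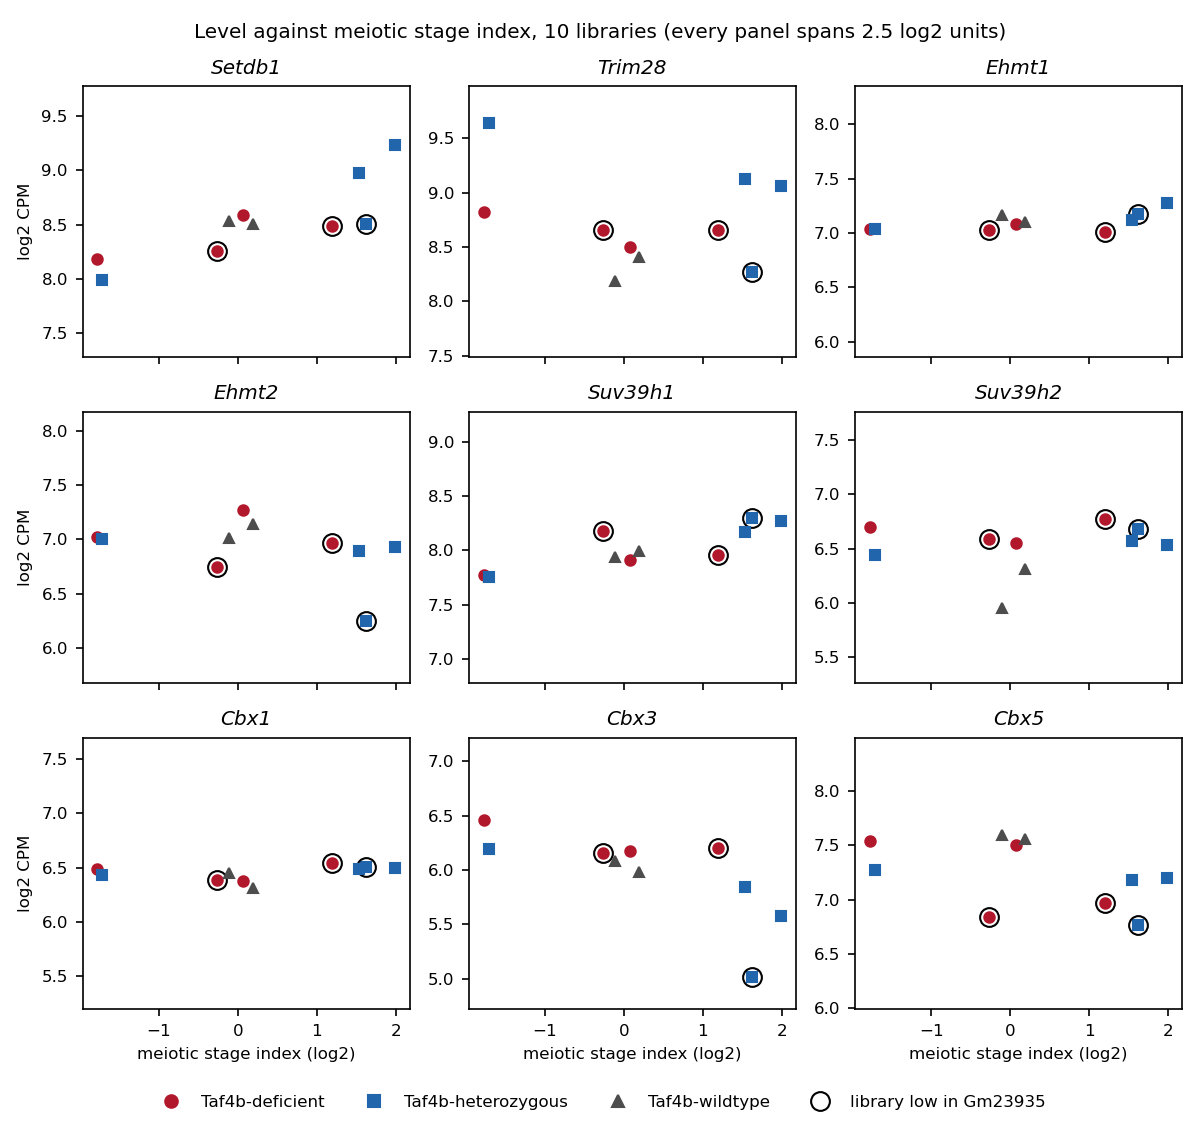
Log2 CPM of the 9 genes against the meiotic stage index of each library; every panel spans 2.5 log2 units, colours give the genotype and rings the 3 libraries low in Gm23935. Setdb1 and Suv39h1 run upward and Cbx3 downward, with the ends held mostly by heterozygous libraries, while Ehmt1 and Cbx1 stay level.

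The wider set of 47 genes of H3K9 methylation, all tested, gave no call by edgeR as reported in any of the 4 genotype comparisons. At an unadjusted p under 0.05 stood 6 in deficient against heterozygous (beside 11.9% of all genes), 2 in deficient against wildtype (3.66%), 2 in deficient against fertile (4.31%) and 6 in heterozygous against wildtype libraries (8.3%). In deficient against heterozygous libraries limma voom called 13 (beside 14.8% of all genes), and edgeR called 2 without heterozygous replicate 1 (2.6%). In heterozygous against wildtype libraries limma voom called 2 (5.23%) and DESeq2 3 (2.36%), and edgeR called 3 without the filter (0.66%), 2 in a fit of these 2 groups (0.747%) and 2 without the 3 libraries low in Gm23935 (0.944%). The methyltransferase gene Setdb2 stood at -0.51 (unadjusted p = 0.0581), Fam208a, a subunit of the HUSH silencing complex, at -0.49 (0.0225), Wiz, a zinc finger partner of the Ehmt enzymes, at -1.05 (0.00407), the demethylase relative Jmjd1c at -0.60 (0.00601) and Kmt5c, a methyltransferase of histone H4 lysine 20, at -0.66 (0.0325) in deficient against heterozygous libraries. The adjusted p of these 5 ran from 0.346 to 0.430. Deficient against wildtype libraries, the genes with the smallest p in their role were Prdm2 (-0.30), Fam208a (-0.32), Cdyl (0.87), Kdm1a (1.35) and Rb1 (0.61), each with an adjusted p of 1.00. Deficient against fertile libraries, they were Prdm16 (-0.66), Fam208a (-0.40), Wiz (-0.33), Kdm4b (-0.46) and Senp7 (-0.68), each with an adjusted p of 0.904. Heterozygous against wildtype libraries, they were Prdm2 (-0.56), Atf7ip (-0.55), Wiz (1.44), Kdm1a (1.50) and Rb1 (1.07), with adjusted p from 0.247 to 0.720. Kdm1a, which encodes the demethylase LSD1, had an unadjusted p of 0.00949 in deficient and 0.00521 in heterozygous against the same wildtype libraries.

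Along the stage index, 18 of the 47 were called, 11 higher and 7 lower, beside 24.8% of all tested genes. Of the 11 H3K9 demethylase genes 3 rose and 1 fell. Kdm4d, which removes trimethylation, had the steepest slope of the 47 at 0.94 per unit (SE 0.079, adjusted p = 4.35e-05) at a mean of 5.76 CPM. Phf8 rose by 0.43 (adjusted p = 0.00228) and Kdm4b by 0.23 (0.00516), and Kdm3b fell by 0.23 (0.0491). Of the 4 further methyltransferase genes Setdb2 rose by 0.30 (adjusted p = 0.000305) and Prdm16 by 0.61 (0.0151), and none fell. Of the 9 genes of Setdb1 and Trim28 partners, Atf7ip2 rose by 0.36 (adjusted p = 0.000745) and the HUSH subunit Mphosph8 by 0.23 (0.00176). Atf7ip, whose protein stabilises Setdb1 in the nucleus, fell by 0.17 (0.0336). None of the 4 Ehmt partner genes was called, the smallest p belonging to Cdyl2 (0.15, adjusted p = 0.175).

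Of the 19 genes of HP1 and heterochromatin partners, 4 rose and 5 fell with the index. Kmt5c rose by 0.33 (adjusted p = 0.000286), Uhrf1, which links methylated H3K9 to DNA methylation, by 0.42 (0.000533), the SUMO protease gene Senp7 by 0.46 (0.00121) and the histone chaperone gene Daxx by 0.18 (0.00488). Incenp, the scaffold of the chromosomal passenger complex, fell by 0.27 (0.000222) and Atrx, the remodeller that works with Daxx, by 0.32 (0.000284). Sgo1, the protector of centromeric cohesin, fell by 0.17 (0.0124), Smarcad1 by 0.15 (0.0284) and Pogz by 0.23 (0.0382). Kdm3b, Uhrf1, Senp7, Daxx, Sgo1, Smarcad1 and Pogz were named after their values were seen. Without the 3 libraries low in Gm23935, 25 of the 47 were called (beside 33.9% of all genes). Without heterozygous replicate 1, 3 of the 47 were called (3.36%), and within deficient libraries alone none was; both fits hold fewer libraries.

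**Figure D5:**
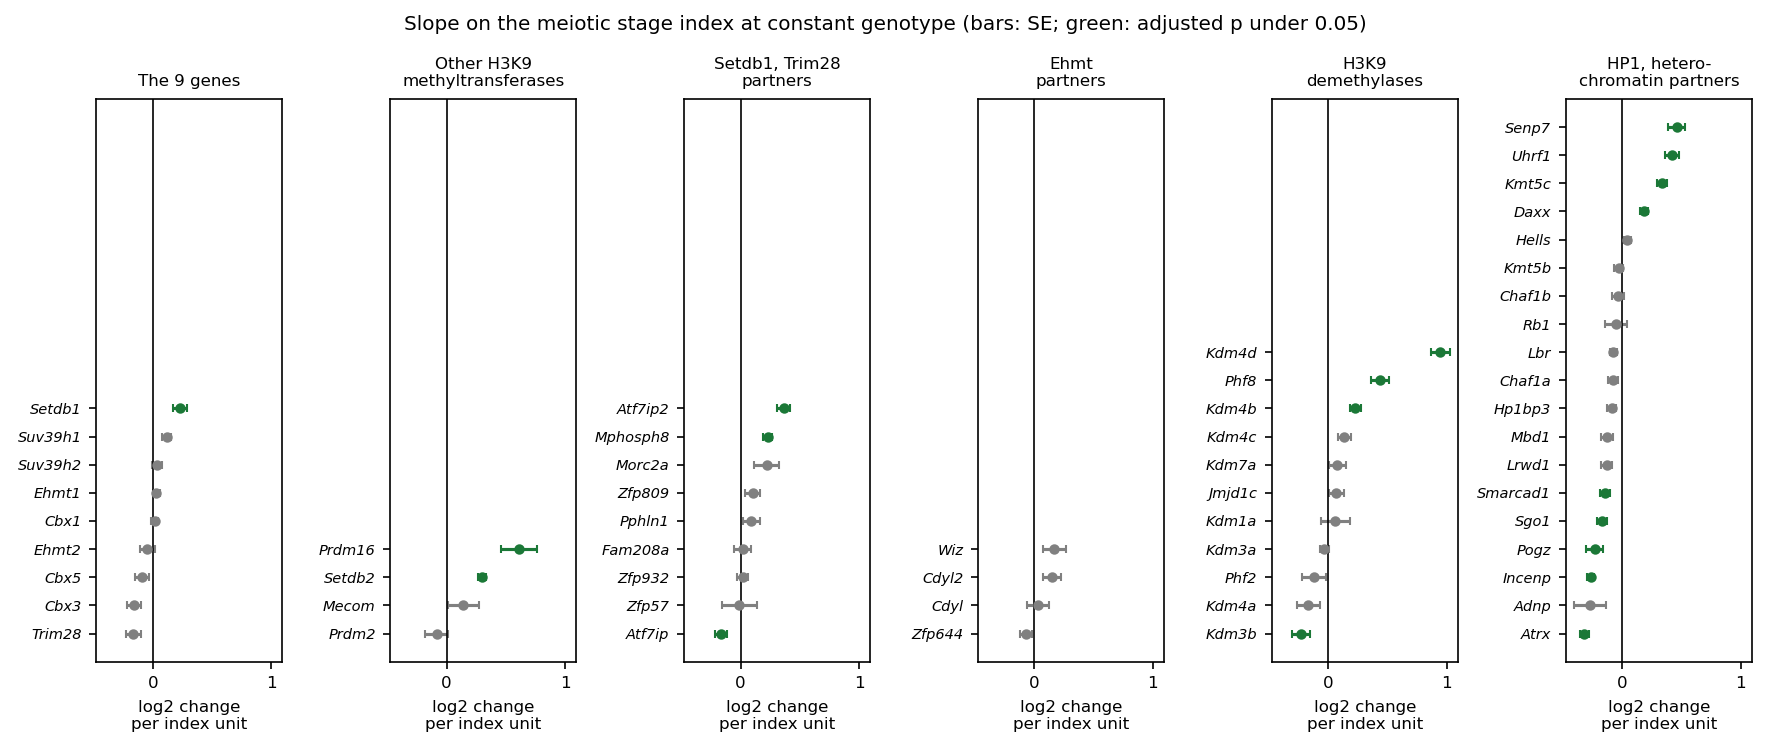
Slope of log2 level per unit of the meiotic stage index at constant genotype, with SE as bars, for the 9 genes and for 47 further genes grouped by role; green marks an adjusted p under 0.05 (edgeR). Setdb1 is the 1 green point of the 9, and Kdm4d has the steepest slope.

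The 3 libraries low in Gm23935 were also those lowest in Cbx5. They held 109 to 125 CPM of Cbx5, where the other 7 libraries held 145 to 194 CPM. Cbx5 was the 1 gene of the 9 that lay below all other libraries in each of them, beside 5.91% of all tested genes, and none lay above. Ehmt2 held 76.0 to 125 CPM there and 119 to 155 CPM in the other 7, which overlap. The 3 libraries belong to 2 genotypes and 2 litter dates, and the part of the Gm23935 level in the Cbx5 values was not tested. Without them the Cbx5 log2 fold change of deficient against fertile libraries was 0.13, against -0.10 with them, neither called, and that of deficient against wildtype libraries was -0.05, against -0.33 with them.

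Genes whose log2 CPM followed most closely that of each of the 9 over the 10 libraries were found by Pearson's r, as a description of libraries that share depth and scaling. For Setdb1 they were Crebl2 and Ankhd1 (r = 0.98 each), and for Trim28 Prrc2b (0.99) and the autophagy kinase gene Ulk1 (0.98). For Cbx3 they were Txnip, whose product inhibits thioredoxin, at 0.98 and the calcineurin subunit gene Ppp3r1 at 0.97. Gnb2 and Tram2 followed Cbx5 (0.98 each), Zfp872 and Crispld1 followed Suv39h1 (0.98 each), and Pigw (0.97) and Fbxl19 (0.96) followed Ehmt2. The closest partners had lower r for the remaining 3 genes, Ccdc97 (0.95) and the mitofusin gene Mfn2 (0.94) for Ehmt1, Ptx3 and Fam49b (0.92 each) for Suv39h2, and Inip (0.89) and Ccdc103 (0.85) for Cbx1. Ptx3 and Ccdc103 averaged 0.716 and 0.321 CPM.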

How the data were processed

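Reads were processed before deposit with Trim Galore 0.5.0, FastQC 0.11.5, HISAT2 2.1.0 on GRCm38 and SAMtools 1.9, per the submitters' processing notes. The same notes name featureCounts (Subread 1.6.2) for the read counts per gene and StringTie 1.3.3b for the TPM values that the authors deposited. For strand setting, annotation release and sequencing kit, the sources used here give nothing. The authors also deposited a DESeq2 table holding, per the file headers, a mean signal of size-factor-scaled counts, log2 fold changes and their errors, a test score, and raw and adjusted p-values, with no contrast named.

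All 55536 identifiers of the counts matched GENCODE M21, which gave coordinates. Genes were kept by filterByExpr, scaled by TMM and fitted in edgeR 4.0.16 (R 4.3.3) as 1 quasi-likelihood model of 3 genotypes over 10 libraries. The stage slope came from a second such model, genotype plus the index. Calls used a Benjamini-Hochberg adjusted p under 0.05 over all 20317 tested genes with no fold minimum. Log2 CPM had a prior count of 2. SE and 95% intervals come from the quasi-likelihood F statistic. Replicate libraries were compared in pairs: over 45 pairs, chi-square per degree of freedom was 9.69 or more, so none was counted as a repeat of another. The fits were tested on simulated data.

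The members, the gene lists and the tests were chosen with earlier results of these data known. The naming rule took the 9 genes, per role of the wider list up to 3 called genes by smallest p (without a call, the 1 of smallest p), and 2 genes of most similar pattern each. Alternatives covered scaling, filter, tool (DESeq2 1.42.0, limma 3.58.1 voom with sample weights), TPM with pseudocounts of 0.1 and 1, litter date, replicate number, stage index, a fit of the 2 groups compared, other forms of the index, and leaving out each library. Leaving out the 3 libraries low in Gm23935 was chosen after seeing the data. Upstream sequences are from RefSeq (GRCm38.p6), matched by symbol for 9 of 9 genes, taking the listed start nearest the GENCODE gene start.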

Additional observations from a re-analysis of the deposited data

Results flagged for a closer look

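Cbx3 in deficient replicate 3 stood at 88.2 CPM, apart from the other 3 deficient libraries at 71.3 to 73.7 CPM: the gap to the nearest library was 0.858 of the range of the group, above the 95% limit for 4 samples. It was 1 flag among 18 groups searched (9 genes in deficient and in heterozygous libraries), where chance flags about 1 in 20 groups. The same library had the lowest stage index.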

How the results depend on the processing

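No gene of the 9 was called in any genotype comparison under any alternative, except by limma voom with sample weights, which called 2 in deficient against heterozygous and 1 in heterozygous against wildtype libraries. The count along the stage index was 1 as reported, 2 by DESeq2, with library totals and with TPM at either pseudocount (filtered genes), 3 without the genotype term and 4 by limma voom and without the 3 libraries low in Gm23935. It was 0 without the 2 libraries farthest from the median index, in heterozygous libraries only and in deficient libraries only, and 0 to 3 without 1 library each. Fewer libraries entered these last fits.

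Replicate numbers do not pair deficient with heterozygous libraries by litter, since no same-numbered pair of these shares a litter date. Deviations from the group means in these pairs correlated at -0.17, 0.38, -0.42 and -0.22. Stage also enters these values, so they cannot decide pairing. Deficient replicate 1 and wildtype replicate 1 share 29 January, with a correlation of 0.08. With the replicate block the counts called were 0, 0, 0 and 0 in the 4 genotype comparisons and 1 along the index, where Trim28 (-0.29, adjusted p = 0.0349) was called and Setdb1 (0.21, 0.189) was not. The block turned Ehmt2 in deficient against wildtype (0.083) and Trim28 in deficient against fertile libraries (0.057).

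Of 1353 values under an alternative, 52 changed sign, none of them called, and the cause was not tested. Deficient against heterozygous, Cbx1 turned with upper quartile scaling (0.021) and without the filter (0.026), Suv39h2 and Cbx5 with TPM (-0.031 and from -0.015 to -0.014, either pseudocount) and Cbx5 with litter date (-0.073). Deficient against wildtype, Suv39h1 turned with DESeq2 size factors (0.00085), no filter (0.011), DESeq2 (0.00087), voom (0.0084) and the stage covariate (0.025), and Ehmt2 without the libraries low in Gm23935 (0.083). Deficient against fertile, Cbx1 turned with voom (-0.0031), Ehmt2 with TPM (-0.15 at 0.1, filtered or not, and -0.14 at 1) and Cbx5 without the libraries low in Gm23935 (0.13). Heterozygous against wildtype, Ehmt1 turned with upper quartile scaling (-0.052), no filter (-0.019) and the stage covariate (-0.0016), and Setdb1 with the last (-0.0099). Along the index, Ehmt1 (-0.0023) and Ehmt2 (0.0051) turned in deficient libraries only, and Ehmt2 without those low in Gm23935 (0.0086).

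Leaving out 1 library at a time, the values that turned ran from -0.062 to 0.024 (Cbx1) in deficient against heterozygous; from -0.16 to 0.016 (Ehmt2), -0.083 to 0.058 (Suv39h1) and -0.0015 to 0.14 (Cbx1) in deficient against wildtype; from -0.11 to 0.10 (Trim28), -0.024 to 0.15 (Ehmt2), -0.013 to 0.053 (Cbx1) and -0.20 to 0.013 (Cbx5) in deficient against fertile; from -0.060 to 0.057 (Ehmt1) and -0.018 to 0.16 (Cbx1) in heterozygous against wildtype; and from -0.00019 to 0.042 (Ehmt1) and -0.074 to 0.020 (Ehmt2) along the index. A fit without 1 wildtype library assumes that the remaining one varies like the other groups. The lowest count of these genes was 1466 reads, and a p that missed the threshold with 2 to 4 libraries a group does not show equal levels.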
